A study of Oryza sativa with 10 samples.

Results

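Rice seedlings that had been greened by 24 h of light were compared with etiolated seedlings kept in the dark (0 h). The comparison used the 2 libraries sampled at 24 h and the 2 sampled at 0 h, which are 4 of the 10 RNA-seq libraries of the study. All seedlings were of the Indica cultivar YD6 and had germinated for 3 d in darkness. The 0 h seedlings were taken at that point, and the 24 h seedlings after a further 24 h in a growth chamber under light, so they were also 24 h older. A solvent spray (DMSO) is described as well, but no source used here says if the 24 h seedlings had it. The other 6 libraries were 2 at 8 h of light and 2 each after a 30 min spray with 100 μM ABA or 100 μM IAA at the end of the same 24 h of light. The sources call the 2 libraries of a group biological replicates. Whole seedlings were sampled, so a change in the share of an organ and a change within its cells cannot be told apart.

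In darkness a seedling lives on its seed reserves. It elongates under cover of the coleoptile, and its plastids stay as etioplasts without thylakoid stacks. Light stops this programme and starts chloroplast building, in which nuclear genes for chlorophyll synthesis and the photosystems are switched on. Transcription factors of the GLK family activate many of these genes. HY5, a bZIP factor known from Arabidopsis, promotes light-dependent development and is degraded in the dark there.

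Transcript levels were given by the authors as FPKM, in which the fragments of a gene are divided by its length and by all fragments of the library. One of the study's plots labels such values TPM, a related unit, and which of these they are was not settled. The values used here were for 2282 genes in the first part of chromosome 1, up to position 21262392 of MSU7.0. Of these, 491 were listed at 0 in all 10 libraries, and 699 had values above 0 but a mean under 1 FPKM. The other 1092 genes averaged 1 FPKM or more across the 10 libraries and were tested on log2(FPKM + 1) with limma. Genes are called higher or lower where the change reached 2-fold on that scale and the Benjamini-Hochberg adjusted p-value was under 0.01. For genes with low values the scale gives too small a change. The table gives locus IDs without gene names, and 0 of the 2282 IDs matched the RefSeq gene list used here. GLK2 and OsbZIP1 are named because the study pairs them with an ID, the other genes are given by ID and position with no role, and the marker genes of seedling tissues were not checked.

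Between the dark and 24 h of light, 76 of the 1092 tested genes were called higher (6.96%) and 93 were called lower (8.52%). In all of these 169 genes (15.5% of those tested) both libraries of one time point lay beyond both of the other, as they did in 960 of the 1092 tested genes (87.9%). The changes of the called genes were mostly moderate, with a median log2 change of 1.37 in the higher and -1.25 in the lower genes. On the log2(FPKM + 1) scale, at least a 4-fold change was reached by 15 genes called higher and 12 called lower. At least a 16-fold change on that scale was reached by 2 and 3. For genes with low values the ratio of mean FPKM was larger, as for LOC_Os01g11500 and LOC_Os01g12570 (below). A further 485 genes had an adjusted p-value under 0.01 in limma for a fall of less than 2-fold, and 87 for a rise of less than 2-fold. Such counts under 2-fold, here and after scaling, rest on the p-value alone. Its spread was pooled over all groups, while the 24 h replicates were farther apart than the others (below). In all, 825 tested genes had a lower mean on the log2(FPKM + 1) scale at 24 h than at 0 h and 267 a higher one, in the values as deposited.

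**Figure D1:**
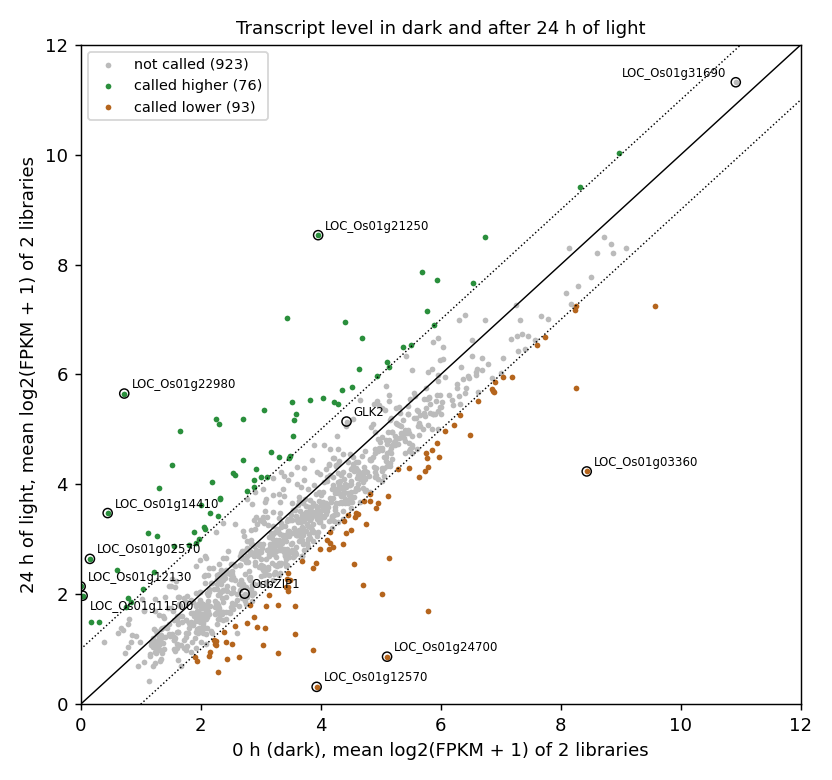
Mean log2(FPKM + 1) of the 2 libraries at 0 h (x axis) against the 2 libraries at 24 h (y axis) for each of the 1092 tested genes. Green points are the 76 genes called higher, brown points the 93 called lower, dotted lines mark a 2-fold change, circles mark 12 of the genes named in the text, and most grey points lie below the solid line of equal level.

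How many genes were called lower depended on the scaling between libraries and on the value added before the log. With 0.1 added to FPKM in place of 1, 139 genes were called lower and 88 higher. As deposited, the median log2 change of the tested genes was -0.38, with lower and upper quartiles of -0.66 and -0.01. After median-of-ratios scaling, which sets the typical gene to no change, the median was -0.02. Then 105 genes were called higher (9.62%) and 31 lower (2.84%), so that 77.2% of the calls were higher in place of 45.0%. The 76 genes called higher as deposited were all called higher after scaling. Because the scaling moves changes upward, this is no separate check of those calls. Of the 93 called lower, 31 were still called lower. Among changes under 2-fold, 201 falls and 157 rises had an adjusted p-value under 0.01 in limma after scaling, and in all 562 tested genes had a lower and 530 a higher mean at 24 h. FPKM are relative to the total of each library, so the values alone cannot tell a fall of most transcripts from a larger share taken by others.

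**Figure D2:**
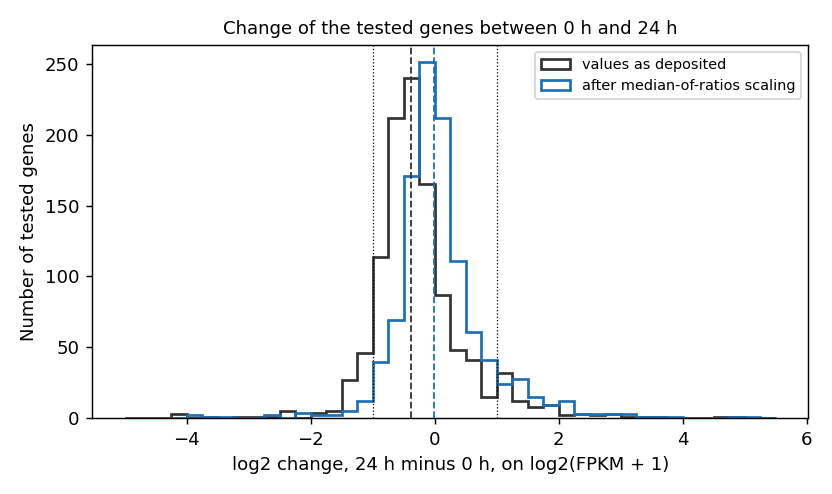
Number of tested genes (y axis) by log2 change from 0 h to 24 h (x axis), for the values as deposited (black) and after median-of-ratios scaling (blue). Dashed lines mark the medians of -0.38 and -0.02 and dotted lines a 2-fold change, and the blue distribution lies to the right of the black one.

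The 24 h replicates were farther apart than the others. Between the 24 h libraries the median absolute difference of a tested gene was 0.127 on the log2(FPKM + 1) scale, against 0.0785 between the 0 h libraries and 0.0750 to 0.0866 in the other groups. On this scale the replicates differed 2-fold or more for 4 tested genes at 24 h and for none (0 genes) at 0 h. In FPKM they did so for 16 genes at 24 h and 4 at 0 h. Of the 4 genes on the log2(FPKM + 1) scale at 24 h, 2 were called lower. With each of the 4 libraries left out in turn, 61 of the 76 higher and 62 of the 93 lower calls passed in each of the 4 fits.

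GLK2 (LOC_Os01g13740), a transcriptional activator of chloroplast development, is at 7686884 to 7693987 of chromosome 1, minus strand (MSU7.0). Its level was 20.9 and 20.2 FPKM in the 0 h libraries and 36.3 and 32.5 FPKM in the 24 h libraries, which did not overlap. At 8 h it was 21.7 and 20.4 FPKM, next to the dark level. In the sprayed libraries, which came from seedlings in the same light period, it lay between 28.0 and 32.5 FPKM. The mean at 24 h was 1.67 times that at 0 h, and the log2 change of 0.71 (SE 0.073, adjusted p = 2.45e-06 in limma) was under the 2-fold limit. After median-of-ratios scaling it was 1.11 (adjusted p = 3.00e-08 in limma), which passed that limit. Among the tested genes GLK2 moved from rank 306 by mean FPKM in the dark to rank 156 at 24 h. Relative to the median change of all tested genes, its log2 change was 1.09.

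OsbZIP1 (LOC_Os01g07880), a rice homolog of HY5, is at 3811149 to 3812069, minus strand. It had 5.58 and 5.70 FPKM in the dark, 4.31 and 4.93 FPKM at 8 h, and 3.71 and 2.45 FPKM at 24 h. Both 24 h libraries were below the dark ones, but they differed from each other by more than the 0 h libraries did. In the sprayed libraries it had 4.12 and 4.24 FPKM after ABA and 11.3 and 9.91 FPKM after IAA, all above both 24 h libraries. The study, which used a t-test, reports no significant change of OsbZIP1 under light. The log2 change was -0.72 (SE 0.133, adjusted p = 3.32e-04 in limma), under the 2-fold limit. After scaling it was -0.38 (limma, adjusted p = 2.76e-02) and missed the limit of 0.01. Set against the median change of the tested genes it was -0.34. Its rank by level went from 741 to 834 of the 1092 genes.

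Among the 1092 tested genes, LOC_Os01g22980 and LOC_Os01g21250 rose most on the log2(FPKM + 1) scale. By the ratio of mean FPKM, LOC_Os01g11500 (below) rose more than both, to 130 times a dark mean of 0.0237 FPKM. LOC_Os01g02570 (below), at 46.3 times, rose more than LOC_Os01g21250 by that measure. LOC_Os01g22980 (12914948 to 12919210, minus strand) had 0.556 and 0.759 FPKM in the dark, 19.7 and 18.2 FPKM at 8 h, and 45.4 and 53.6 FPKM at 24 h. Its mean at 24 h was 75.2 times the dark mean (log2 change on the log2(FPKM + 1) scale 4.93, SE 0.089, adjusted p = 3.29e-13 in limma). It shares 433 bp with a gene on the other strand, LOC_Os01g22954, which stayed between 1.16 and 1.34 FPKM in these 4 libraries (log2 change -0.04, adjusted p = 8.11e-01 in limma). The authors counted reads without strand and name no strand setting for the FPKM values, so reads in the shared part may count for either gene.

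LOC_Os01g21250 (11863920 to 11864332, minus strand) is a short gene model of 413 bp that became one of the most abundant transcripts of the table. It had 13.6 and 15.5 FPKM in the dark, 37.0 and 31.1 FPKM at 8 h, and 462 and 295 FPKM at 24 h. The 24 h libraries were far apart, and both lay well above the other time points. Its mean rose 26.03 times (log2 change 4.58, SE 0.158, adjusted p = 1.19e-10 in limma), from rank 424 to rank 4 by level. Over the 12 genes with the largest rises, the log2 changes ran from 2.48 to 4.93, and the median level over these genes was 2.97 FPKM at 0 h, 8.24 FPKM at 8 h and 34.3 FPKM at 24 h. All 12 were also called after scaling, which moves changes upward.

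On the log2(FPKM + 1) scale, LOC_Os01g24700 and LOC_Os01g03360 fell most among the tested genes. By the ratio of mean FPKM, LOC_Os01g12570 (below) fell more than both, with a dark mean 57.7 times its mean at 24 h. LOC_Os01g24700 (13899523 to 13900729, minus strand) had 32.7 and 34.1 FPKM in the dark, 6.83 and 7.98 FPKM at 8 h, and 0.998 and 0.661 FPKM at 24 h. Its dark mean was 40.3 times the mean at 24 h (log2 change -4.24, SE 0.120, adjusted p = 2.07e-11 in limma). It went from rank 193 of the tested genes to rank 1079.

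LOC_Os01g03360 (1353629 to 1354802, minus strand) was among the 10 most abundant tested transcripts in the dark. It had 355 and 333 FPKM at 0 h, 87.4 and 83.2 FPKM at 8 h, and 18.4 and 17.2 FPKM at 24 h. Its dark mean was 19.3 times the mean at 24 h (log2 change -4.20, SE 0.060, adjusted p = 5.83e-14 in limma). Over the 12 genes with the largest falls, the log2 changes ran from -4.24 to -2.30, and the median level over these genes was 32.5 FPKM at 0 h, 9.89 FPKM at 8 h and 2.67 FPKM at 24 h. These 12 were also called after scaling.

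Few genes were near 0 in one state and clearly present in the other. With both libraries of one time point under 0.5 FPKM and both of the other at 2 FPKM or more, 4 genes of the whole table were near 0 in the dark and present at 24 h, and 1 gene was near 0 at 24 h. All 5 had a mean of at least 1 FPKM and were called. These limits choose genes that differ, so the counts describe the table and are no test.

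LOC_Os01g14410 (8061858 to 8062908, plus strand) had the highest 24 h level of the 4 genes near 0 in the dark. It had 0.403 and 0.330 FPKM at 0 h, 5.02 and 4.52 FPKM at 8 h, and 11.3 and 9.06 FPKM at 24 h (log2 change 3.03, SE 0.104, adjusted p = 1.13e-10 in limma). LOC_Os01g02570 (852249 to 854568, minus strand) stayed low for longer, with 0.0882 and 0.139 FPKM at 0 h and 0.668 and 0.632 FPKM at 8 h. At 24 h it had 5.21 and 5.29 FPKM, 2 values that nearly coincide (log2 change 2.49, SE 0.112, adjusted p = 1.47e-09 in limma).

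LOC_Os01g12130 (6612343 to 6613905, minus strand) was listed at 0 in both dark libraries. It had 1.18 and 0.969 FPKM at 8 h and 3.47 and 3.37 FPKM at 24 h (log2 change 2.14, SE 0.173, adjusted p = 3.08e-07 in limma). LOC_Os01g11500 (6188518 to 6189219, minus strand) was listed at 0.0473 and 0 FPKM in the dark, and had 0.962 and 0.817 FPKM at 8 h. Its 24 h libraries, at 4.13 and 2.01 FPKM, were far apart, and the second lay close to the limit of 2 FPKM (log2 change 1.94, SE 0.245, adjusted p = 1.59e-05 in limma). The depth of the libraries is unknown, so a value listed at 0 gives no bound on the level of these genes.

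The single gene near 0 after 24 h of light was LOC_Os01g12570 (6912704 to 6915127, minus strand). It had 14.1 and 14.4 FPKM in the dark, 0.444 and 0.287 FPKM at 8 h, and 0.176 and 0.318 FPKM at 24 h (log2 change -3.62, SE 0.122, adjusted p = 1.09e-10 in limma). Its 8 h level was already next to that at 24 h, whereas each of the 4 genes near 0 in the dark had a lower level at 8 h than at 24 h in both libraries. With presence set at 1 FPKM, 7 genes were near 0 in the dark and 5 at 24 h. With presence at 2 FPKM, 3 genes were near 0 at 24 h if either 24 h replicate 1 or 24 h replicate 2 was left out.

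**Figure D3:**
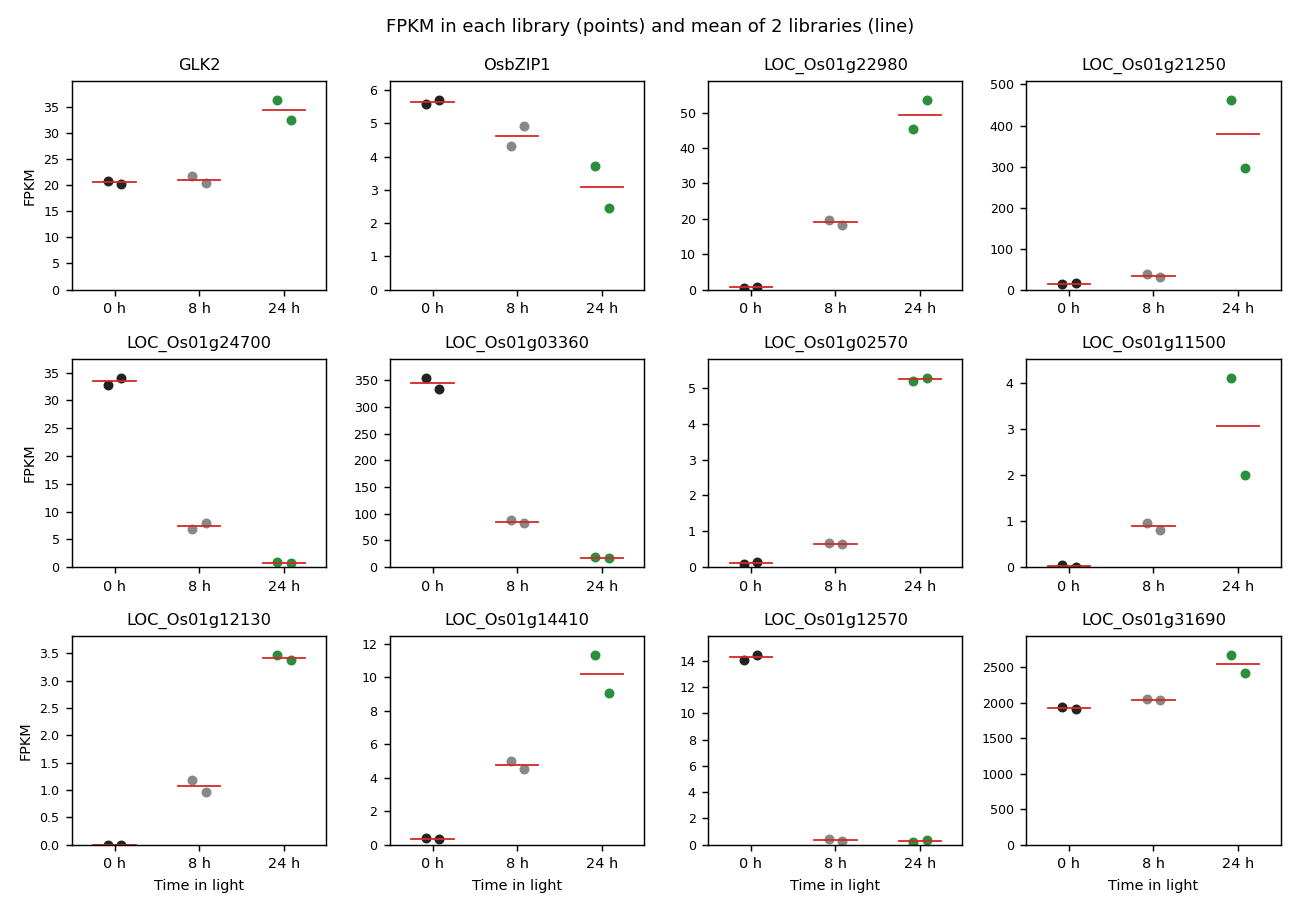
FPKM (y axis, linear and starting at 0) of 12 named genes at 0 h, 8 h and 24 h of light (x axis), with 1 point per library and a line at the mean of the 2 libraries. The 0 h and 24 h libraries do not overlap in any of the 12 panels, nor in 87.9% of all tested genes, and the 24 h points of LOC_Os01g21250 stand apart at 295 and 462 FPKM.

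The most abundant tested transcript was the same in both states. LOC_Os01g31690 (17349311 to 17350816, plus strand) had 1946 and 1911 FPKM in the dark and 2675 and 2427 FPKM at 24 h, both higher (log2 change 0.40, SE 0.064, adjusted p = 1.07e-04 in limma), which is under the 2-fold limit, also after scaling (0.82). Its adjusted p in limma was 2.91e-02 with the 4 libraries of 0 h and 24 h fitted alone and 2.31e-02 without the filter on low values, both above the limit of 0.01. Its share of the summed FPKM of the table was 6.47% and 6.53% at 0 h and 10.2% and 9.69% at 24 h. The 10 most abundant genes of each library together held 20.8% of that sum in both dark libraries, and 26.3% and 25.4% at 24 h. The values of the table were thus concentrated in fewer genes after 24 h of light, for the part of the genome covered here.

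The share of called genes was highest among the most abundant genes in both directions, as a description with no test. The log2(FPKM + 1) scale gives too small a change at low values, so genes with low means reach the 2-fold limit less easily. The part of this in the order by level was not tested. Of the 45 tested genes with a mean of 100 FPKM or more, 10 were called higher (22.2%) and 7 lower (15.6%), and after scaling 13 and 3. Of the 350 genes with a mean from 1 to 5 FPKM, 15 were called higher (4.29%) and 26 lower (7.43%), and after scaling 17 and 9. The genes called higher had a median level of 6.004 and 6.22 FPKM in the dark, 13.3 and 12.4 FPKM at 8 h and 20.3 FPKM in both 24 h libraries. The genes called lower had a median of 19.95 and 19.9 FPKM in the dark, 10.04 and 10.03 FPKM at 8 h, and 7.09 and 5.39 FPKM at 24 h. The calls fix the order of the 0 h and 24 h medians, and the 8 h medians lay between them in both sets.

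The genes called lower had short gene models. The median span from start to end, introns included, was 1670 bp over the 93 genes called lower, 3394 bp over the 76 called higher and 3592 bp over all tested genes. The tested genes were divided into 4 equal groups by span after the calls had been seen, so what follows is a description. In the shortest group (243 to 2108 bp), 61 of 273 genes were called lower (22.3%) and 24 higher (8.79%). In the longest group (5149 to 35383 bp), 5 of 273 were called lower (1.83%) and 16 higher (5.86%). Across the 4 groups the share called higher lay between 5.86% and 8.79%, and the share called lower fell at each step, through 7.33% and 2.56%.

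The median log2 change went from -0.51 in the shortest group to -0.44, -0.32 and -0.28 in the longer ones, and after median-of-ratios scaling from -0.16 to -0.09, 0.04 and 0.08. After scaling, 23 genes of the shortest group (8.42%) and none of the longest (0 genes) were called lower. Within a range of levels the order was similar. Among genes with a mean from 5 to 20 FPKM, 24 of 82 genes of the shortest group (29.3%) and 4 of 138 of the longest (2.90%) were called lower. The 24 h replicates also differed by span. The median of replicate 1 minus replicate 2 was 0.14 in the shortest group and -0.06 in the longest on the log2(FPKM + 1) scale, whereas between the 0 h replicates it was 0.03 and 0.01. Against the mean of the 0 h libraries, the shortest group changed by -0.47 in 24 h replicate 1 and by -0.57 in replicate 2, and the longest by -0.31 and -0.25. The order was therefore present in each 24 h library and larger in replicate 2. Without replicate 2, 45 genes of the shortest and 4 of the longest group were called lower, and without replicate 1, 72 and 7. The part of this difference between the 24 h replicates in the order by span was not tested.

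**Figure D4:**
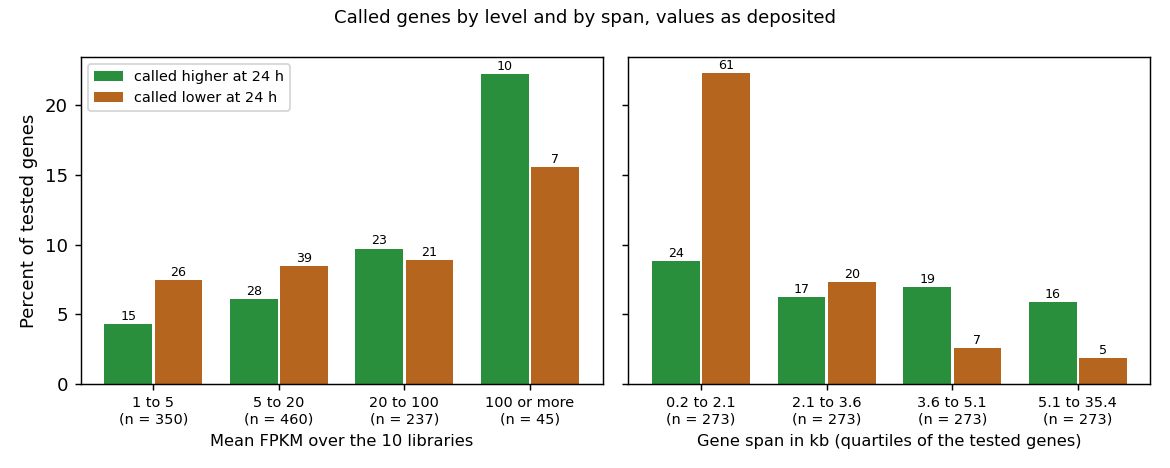
Percent of tested genes called higher (green) or lower (brown) at 24 h (y axis), by mean FPKM (left) and by gene span in 4 groups of 273 genes (right), with the number of called genes above each bar and values as deposited. The brown bars drop from 22.3% in the shortest to 1.83% in the longest group, while the green bars stay between 5.86% and 8.79%.

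Some called genes were neighbours in the order of the tested genes along the chromosome. In this order, 6 runs of adjacent genes called higher held 13 of the 76 genes called higher. For genes called lower, 12 runs held 26 of the 93, with at most 3 genes in any run. Untested gene models can lie within a run. The run of 3 genes called higher spans 209 kb and 13 gene models, of which 10 were not tested. How many runs the shares called (6.96% and 8.52% of tested genes) would give by themselves was not worked out. The run with the largest changes held 3 genes called lower on the minus strand between 1344557 and 1354802, and it was singled out after its values were seen. It includes LOC_Os01g03360 (above). Next to it, LOC_Os01g03340 (1347567 to 1348786) had 307 and 300 FPKM in the dark, 165 and 163 FPKM at 8 h, and 56.2 and 50.0 FPKM at 24 h (log2 change -2.49, SE 0.060, adjusted p = 5.65e-12 in limma). LOC_Os01g03330 (1344557 to 1346419) was much less abundant, with 7.63 and 6.79 FPKM in the dark and 1.16 and 1.07 FPKM at 24 h (log2 change -1.96, SE 0.123, adjusted p = 2.95e-08 in limma). All 3 were called lower after scaling as well, and 1 further gene model within this stretch was under the limit of 1 FPKM and not tested.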

How the data were processed

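Reads were trimmed (seqtk) and aligned (Hisat2) by the authors, who counted reads without strand (HTseq-count) and name Cufflinks for FPKM. They deposited 1 table labelled FPKM with a column per library, and which tool gave its values was not checked. The notes submitted by the authors also name SAMtools, featureCounts and DESeq2. A figure of the study labels values of 1 gene equal to the deposited ones as TPM, so the unit is not settled, and the sequencing depth is unknown. Of the rows used here, 1 was incomplete and left out. The ABA, IAA and 8 h libraries entered the fit only to share the estimate of spread.

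On log2(FPKM + 1), limma 3.58.1 (R 4.3.3) with lmFit and eBayes with a trend was fitted to all 10 libraries and checked on simulated data. The count test of the authors was not used, since FPKM are not counts. Genes named are GLK2 and OsbZIP1, and the 2 largest rises and 2 largest falls on log2(FPKM + 1) without overlap. Also named are each gene near 0 in one state, the most abundant gene and a run of neighbours. The last 2 were chosen after their values were seen. The planned rule also named the rest of the 12 largest rises and 12 largest falls, given here as ranges since the IDs could not be matched to names, and genes from annotated lists. For the same reason gene lists and promoter motifs were not analysed. The groups by span and their alternatives were added after seeing the data. Members and limits were chosen with earlier results of these data known. Alternatives were a pseudocount of 0.1, no filter, a minimum mean of 5 FPKM, median-of-ratios scaling over 1347 genes, the 4 libraries alone, a replicate block, an adjusted p-value under 0.05 and leaving out each library. Python 3.11.15 with pandas 2.3.3 and matplotlib 3.10.9 was used for the rest.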

Additional observations from a re-analysis of the deposited data

How the results depend on the processing

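Median-of-ratios scaling gave 31 genes lower at 24 h, against 93, and a median change of -0.017. Without a filter on low values this median was -0.14, over more genes at low levels. A pseudocount of 0.1 gave 88 genes higher and 139 lower, against 76 and 93. By span it gave 78 genes lower in the shortest group and 11 in the longest, against 61 and 5. With each library left out, 69 to 76 genes were higher and 74 to 126 lower in the pooled fit of limma, where a lone library is taken to vary like the other groups. The genes near 0 in the dark numbered 2 with a limit of 0.1 FPKM, 7 with presence at 1 FPKM and 2 with presence at 5 FPKM, and those near 0 at 24 h 0 with 0.1 FPKM and 5 with presence at 1 FPKM. Likewise without 1 library, those near 0 at 24 h numbered 1 to 3, with 3 when either 24 h library was out. Under these alternatives, 148 of 149 values of 14 named genes kept their direction and side of the joint limit on fold and adjusted p. GLK2 passed that limit after scaling (1.11). Most of these genes were chosen for their values, and several alternatives leave the log2 change as it is. The count is therefore a description and no separate check. Among genes under 2-fold from the start, the adjusted p in limma was above 0.01 in 3 values, for OsbZIP1 after scaling (2.76e-02) and for LOC_Os01g31690 with the 4 libraries alone (2.91e-02) and without a filter (2.31e-02).

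Libraries with the same replicate number did not deviate together, with correlations between groups from -0.07 to 0.11, so the numbers were not used as pairs. Adding the replicate block left the counts at 76 higher and 93 lower. Each group holds both replicate numbers, so the block cannot alter the log2 changes, and these counts are no test of pairing.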

Other observations

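Among all 2282 genes, 21 were listed at 0 in both dark libraries and above 0 in both 24 h libraries, with means at 24 h of up to 3.42 FPKM. In the other direction 35 genes were listed at 0 in both 24 h libraries and above 0 in both dark libraries, with dark means of up to 0.527 FPKM. A value of 0 in such a table can also be a failed estimate.

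Along chromosome 1, in steps of 5 Mb, the share of tested genes called higher was 6.78%, 7.47%, 10.2%, 3.42% and 3.85%, against 6.96% over all tested genes. The share called lower was 7.32%, 10.9%, 9.04%, 6.16% and 5.77%, against 8.52%. The steps held 369, 348, 177, 146 and 52 tested genes, and the differences between them were not tested. Of the 76 genes called higher, 6 overlap another gene model of the table (7.89%), as do 1 of the 93 called lower (1.08%) and 37 of all tested genes (3.39%). Reads in a shared part may count for either gene.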
